A study of Homo sapiens with 6 samples.

Results

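The mitosis genes described here are 40 genes chosen by name for their known part in cell division, and their levels were followed in NB4 cells during treatment with all-trans retinoic acid (ATRA). Where several probe sets were assigned to a gene alone, the one brightest on average across the 6 arrays stood for it. All 40 had such a probe set, and all 40 passed the filter on low values, as did 13594 of 19775 genes in the whole series. NB4 is an established line from a human acute promyelocytic leukaemia with the PML-RARA fusion, and ATRA, a ligand of retinoic acid receptors, drives such cells toward neutrophils. There was 1 array of untreated cells (0 h) and 1 each of cells harvested 4, 12, 24, 48 and 72 h after ATRA was added at 1e-06 M, with no replicates, so the difference of any 2 arrays below has no replicate check and no p-value. All arrays come from the same line, the untreated sample was taken at 0 h only, and time in ATRA cannot be told apart from time in culture.

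Entry into mitosis is driven by the kinase CDK1 bound to cyclin A or cyclin B, and the cell leaves mitosis when the anaphase-promoting complex marks the cyclins and securin for destruction. Between these events the chromosomes condense, attach to spindle microtubules through kinetochores, are held by the spindle checkpoint until all are attached, and are then pulled apart. Most genes of this programme are transcribed late in the cell cycle, under the MuvB complex with B-MYB and FOXM1, and are shut off in resting cells by the DREAM complex, which also contains MuvB. MuvB binds an element called the CHR in their promoters, often near CCAAT boxes that bind NF-Y. Loss of these transcripts is known to accompany terminal differentiation of myeloid cells, as granulocytes leave the cell cycle.

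The promoters are shown because the members moved together on the last array. RefSeq promoter sequences (GRCh38.p14) were at hand for 33 of the 40 genes, with no entry for TTK, UBE2C, TPX2, BIRC5, FOXM1, BUB3 and AURKA. The 120 bases before the annotated start are printed 5′ to 3′ on the gene's strand for 5 of the members whose stretch holds a CHR and whose 72 h value was 2-fold or more below that at 48 h. They are followed by CCNA2, which has a CCAAT box and no exact CHR there, and KIF2C, which has neither. Capitals mark the CHR, searched as TTTGAA, and the CCAAT box, searched as CCAAT, each on both strands. The stretches lie at chr15:59105026-59105145 (+) for CCNB2, chr16:23678769-23678888 (+) for PLK1, chr1:43358861-43358980 (+) for CDC20, chr15:40160949-40161068 (+) for BUB1B, chrX:70289984-70290103 (+) for KIF4A, chr4:121823884-121824003 (-) for CCNA2 and chr1:44739717-44739836 (+) for KIF2C.
CCNB2: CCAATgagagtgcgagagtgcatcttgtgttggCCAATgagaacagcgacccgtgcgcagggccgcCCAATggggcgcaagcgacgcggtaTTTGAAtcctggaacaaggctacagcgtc
PLK1: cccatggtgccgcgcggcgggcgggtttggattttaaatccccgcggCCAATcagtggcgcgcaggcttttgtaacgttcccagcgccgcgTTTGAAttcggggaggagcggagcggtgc
CDC20: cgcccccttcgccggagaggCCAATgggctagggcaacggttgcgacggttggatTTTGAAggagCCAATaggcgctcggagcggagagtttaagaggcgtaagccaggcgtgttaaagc
BUB1B: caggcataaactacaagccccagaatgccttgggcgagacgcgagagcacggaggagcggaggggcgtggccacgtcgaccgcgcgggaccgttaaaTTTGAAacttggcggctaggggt
KIF4A: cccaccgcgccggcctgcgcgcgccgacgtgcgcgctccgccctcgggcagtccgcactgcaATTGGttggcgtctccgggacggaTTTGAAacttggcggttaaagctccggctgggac
CCNA2: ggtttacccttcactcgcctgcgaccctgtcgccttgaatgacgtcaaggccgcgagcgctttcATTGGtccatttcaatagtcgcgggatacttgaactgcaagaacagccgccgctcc
KIF2C: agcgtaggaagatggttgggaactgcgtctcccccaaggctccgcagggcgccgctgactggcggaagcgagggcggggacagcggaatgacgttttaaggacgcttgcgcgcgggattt

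In CCNB2 3 CCAAT boxes, at 120, 87 and 54 bases before the start, precede a CHR that begins at 29 bases. PLK1 has its CHR at the same distance of 29 bases, with a CCAAT box at 73. Over the 250 bases before each start, 18 of the 33 members (54.5%) held a CHR, against 16.1% of all 27305 genes in the promoter table. A CCAAT box was found in 28 of 33 (84.8%) against 37% of all genes, and both in 17 (51.5%) against 5.79%. Counting the 50 bases after the start as well, 24 of 33 (72.7%) held a CHR, against 18.2%. E2F sites, searched as TTTGGCGC, TTTCCCGC, TTTCGCGC and TTTGCCGC on both strands, were found before the start of CDK1, CENPA and NUSAP1, 9.09% of the members against 3.4% of all genes. These matches are letters in a window and not measured binding. From 48 to 72 h the median log2 difference was -1.04 over the 18 members with a CHR before the start and -1.01 over the 15 without. Some of those 15 hold a CHR in the 50 bases after the start, so these medians do not compare promoters with and without the element.

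In the deposited scaling, mitotic transcripts stayed close to their untreated level through 48 h and were lower on the 72 h array. The members' median log2 difference from untreated cells was 0.16 on the 4 h array, -0.06 on the 12 h array, 0.05 on the 24 h array, 0.02 on the 48 h array and -0.95 on the 72 h array. The median over all genes was 0.03, -0.06, -0.01, -0.02 and -0.06 at the same times. The level through 48 h depends on scaling: at 48 h the members' median was 1.02 with a shift on all 18 hybridisation controls and -0.34 with one on bioB, bioD and cre without bioC, beside 0.98 and -0.38 for all genes. All 40 members were lower at 72 h than at 48 h, against 55.8% of all genes. The members were lower by 0.23 to 1.38 on the log2 scale with a median of 1.01. The median of all genes differed by -0.05 (72 h minus 48 h). Of the 40, 21 (52.5%) were 2-fold or more lower at 72 h than at 48 h, against 2.14% of all genes, and none was 2-fold higher, against 4.74%. At 1.5-fold the count lower was 35 (87.5%), against 10.5%. In an RNA sample from a whole culture, fewer cells in mitosis and less RNA per dividing cell cannot be told apart.

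**Figure D1:**
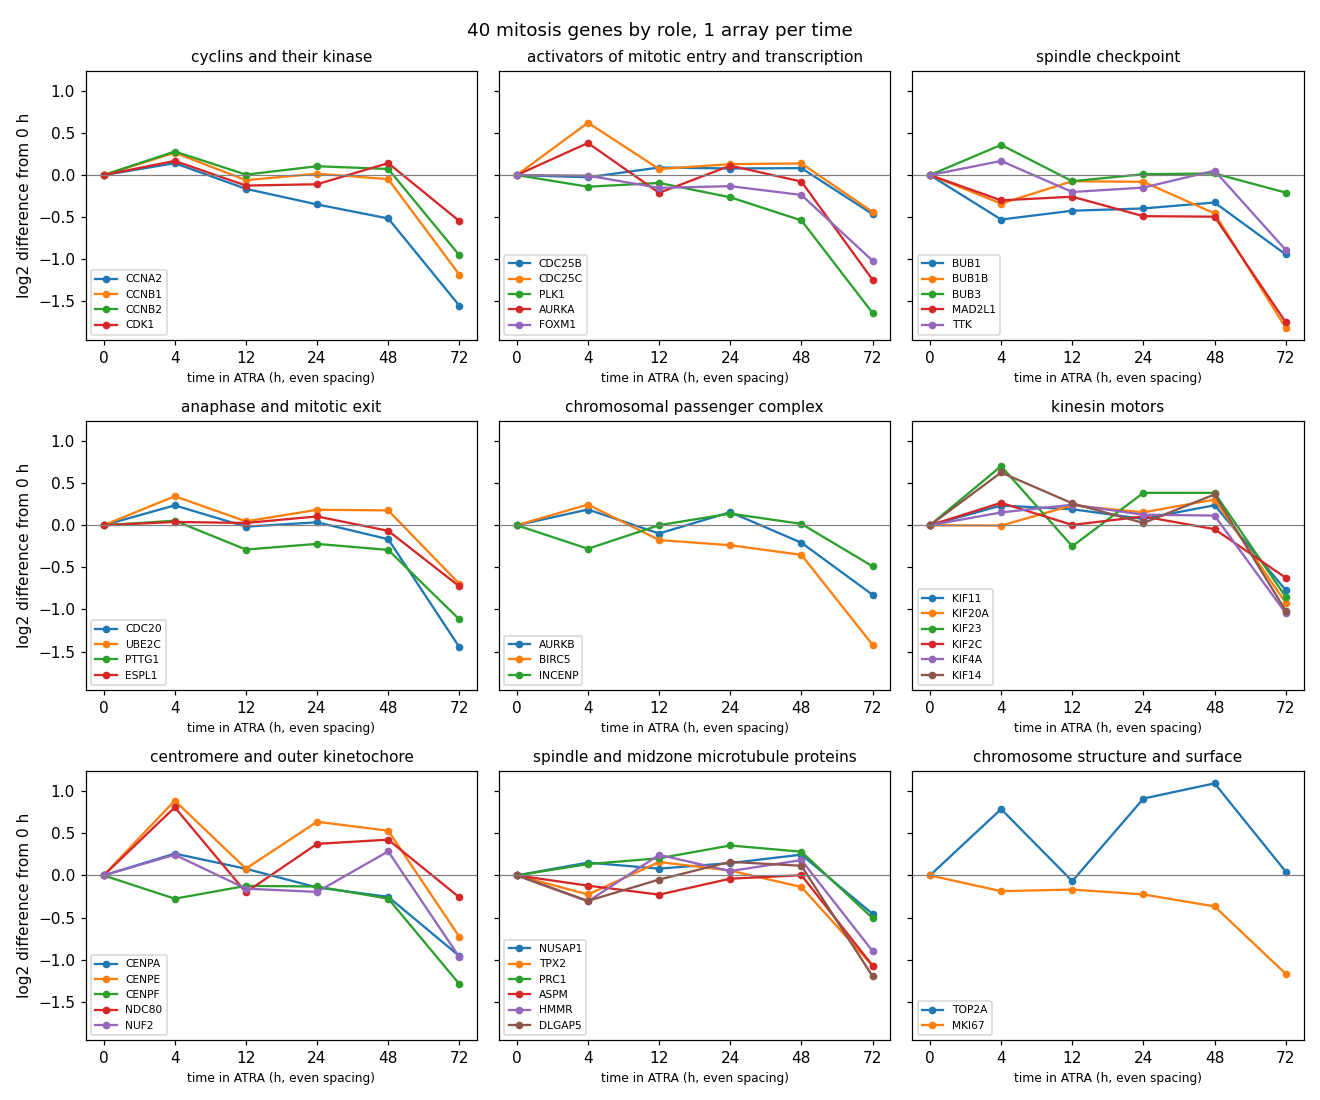
Log2 difference from the untreated array (y axis) at each time in ATRA (x axis, times evenly spaced) for the 40 mitosis genes in 9 panels by role; each line is 1 gene and each point 1 array. The lines run near 0 up to 48 h, apart from higher values of single genes such as TOP2A at 48 h (1.09). Lower values include PLK1 at 48 h (-0.54) and BUB1 at 4 h (-0.53). All lines drop from 48 to 72 h, where 39 of 40 genes lie below 0.

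**Figure D2:**
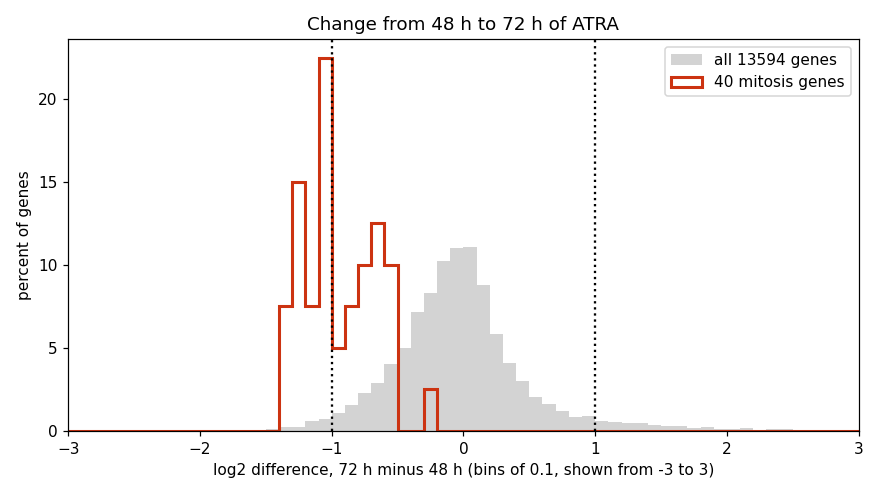
Histogram of the log2 difference between the 72 h and 48 h arrays (x axis, bins of 0.1) as a percent of genes (y axis), for all 13594 genes in grey and the 40 mitosis genes as a red outline; dotted lines mark 2-fold. The mitosis genes lie between -1.38 and -0.23, where the grey median is -0.05.

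Against untreated cells, 17 of 40 members (42.5%) were 2-fold or more lower at 72 h, where 12.2% of all genes were, and none was 2-fold higher, where 10.9% were. The count of 17 was 6 with cyclic loess (8.56% of all genes), 2 with the shift on all 18 controls (3.65%) and 37 with the shift without bioC (28.3%). At 4, 12, 24 and 48 h no member was 2-fold lower, against 1.81%, 1.93%, 1.99% and 4.49% of all genes. TOP2A at 48 h was the only member 2-fold higher at any time. The shares of all genes that were 2-fold higher were 1.74%, 2.3%, 3.35% and 5.83% on those 4 arrays. The 72 h array held the lowest of the 6 values for 39 members (97.5%), against 35.1% of all genes, the exception being TOP2A, lowest at 12 h. In 32 members (80%) the 72 h value lay under the lowest earlier value by more than the whole range of the 5 earlier arrays, a measure chosen after the values were seen, which 8.32% of all genes met. That earlier range had a median of 0.40 over the members and 0.55 over all genes. The counts of 39 and 32 are for the deposited scaling and were not taken with the others. With the shift on all 18 controls 30 of 40 members were lower at 72 h than untreated, so neither count can hold there.

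The 48 and 72 h arrays had similar levels of the spiked bioC control (6.88 and 7.17, log2), while the 0 and 12 h arrays averaged 8.06 and the 4, 24, 48 and 72 h arrays 7.04. Array medians lay between 3.64 and 3.69. The 18S rRNA control (3′ probe set) read 9.98 on the 12 h array and 5.80 to 6.80 on the other arrays. Its bearing on the 12 h values was not tested. The difference between the 3′ and 5′ GAPDH control probe sets was 0.21 at 72 h and 0.02 to 0.13 on the other arrays, that of ACTB was 0.13 at 72 h and 0.14 to 0.26 elsewhere, and the part of RNA quality in the 72 h values was not tested. The direction from 48 to 72 h held for 39 members with cyclic loess, where BUB3 was at 0.02. It held for 40 with either control shift (all 18 hybridisation controls, or bioB, bioD and cre without bioC). Those 2 outcomes were fixed in advance, since both shifts lower every gene over this step. The median of all genes from 48 to 72 h was -0.39 with all 18 controls, -0.26 without bioC and 0.03 with cyclic loess. Cyclic loess gave a median of -0.81 for the members and 9 of them 2-fold lower, against 1.26% of all genes. The difference from untreated at 72 h depends more on scaling, since the shift on all 18 controls left 30 of 40 members lower with a median of -0.28, beside 0.60 for all genes. Of 9 promyelocyte and neutrophil markers 8 were kept, with MPO, CTSG and CEBPA falling and CEBPE, ITGAM and CD38 rising. MPO stood at 12.9 in untreated cells, and the neutrophil integrin ITGAM went from 5.84 to 9.90 at 72 h. Of other cell types, 3 B cell markers were kept (CD79A rising, CD79B falling), as were 7 of 7 T and NK cell markers (GNLY rising), 2 of 5 erythroid ones and 5 of 6 fibroblast and epithelial ones, with no call in the last 2 lists.

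A straight trend over the 6 arrays, taken in time order, called 5 of the 40 members as falling (12.5%), against 9.86% of all genes, and none as rising, against 8.33%. That share is near the background and says nothing particular about these genes. The p-values measure the spread of single arrays around a line. At an unadjusted p under 0.05, 13 members (32.5%) had a falling slope, against 19.1% of all genes, and 0 a rising one. The 5 called were CCNA2, PLK1, MAD2L1, PTTG1 and BIRC5. In the deposited scaling these were already lower at 48 h than in untreated cells. With the shift on all 18 controls they were higher, by 0.46 (PLK1) to 0.71 (PTTG1), beside a median of 0.98 for all genes. Leaving out the 4, 12 or 72 h array left none called, where 6.35%, 7.61% and 1.98% of all genes fell. Without the untreated array CCNA2, BIRC5 and CENPA were called (3.94% of all genes fell). Without 24 h CCNA2, PLK1 and MAD2L1 were called (9.33%), and without 48 h the same 5 as in the main fit (7.02%). With time in hours in place of time order 14 of 40 members fell, against 13.1% of all genes, and the added ones were CCNB1, AURKA, FOXM1, BUB1B, CDC20, AURKB, CENPA, CENPF and MKI67. With the bioC level as a covariate CCNA2, PTTG1 and BIRC5 fell (9.57% of all genes), and with cyclic loess CCNA2 alone (7.82%). With the shift on all 18 controls none fell (0.353%), and with the shift without bioC 19 members, against 24% of all genes.

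Among the cyclins and their kinase, cyclin A2 (CCNA2), which acts with CDK2 in S phase and with CDK1 at the start of mitosis, read 9.30, 9.44, 9.14, 8.95, 8.78 and 7.75 (log2) at 0, 4, 12, 24, 48 and 72 h. Its values from 24 h on lay below all 3 earlier ones, and its last step was the largest. CCNA2 was 2.93-fold lower at 72 h than untreated and fell by 0.28 ± 0.07 per step (SE, limma adjusted p = 0.0262). In the deposited scaling the B cyclins showed no such early decline. Cyclin B1 (CCNB1), the main partner of CDK1, read 10.11, 10.37, 10.05, 10.12, 10.06 and 8.92, so the first 5 arrays spanned 0.33 and the 72 h array stood 2.20-fold below 48 h. Its trend was not called (limma adjusted p = 0.115). Cyclin B2 (CCNB2) gave 10.15 untreated, 10.22 at 48 h and 9.20 at 72 h. CDK1 itself read 10.48, 10.65, 10.36, 10.37, 10.62 and 9.93 and was 1.61-fold lower at 72 h than at 48 h, the smallest difference of these 4 genes. Its 4 kept probe sets were all lower at 72 h than at 48 h, by 0.69, 0.78 and 0.79 (log2) in the bright ones, and the dim one, unlike the others, ended slightly above its untreated value (by 0.08).

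Of the activators of entry and of transcription, Polo-like kinase PLK1, which promotes entry, spindle assembly and exit, read 9.36, 9.22, 9.27, 9.10, 8.82 and 7.73. Its 48 h value lay under all earlier ones, and the 72 h value lay another 2.14-fold lower. PLK1 fell by 0.27 ± 0.07 per step (SE, limma adjusted p = 0.039) and was 3.11-fold lower at 72 h than untreated. Aurora A (AURKA), the kinase of spindle poles and an activator of PLK1, read 10.11, 10.50, 9.90, 10.23, 10.04 and 8.87. It was highest at 4 h and stood 2.24-fold below 48 h at 72 h. The dimmest probe set of AURKA was 0.29 above untreated at 72 h, though 0.41 below 48 h. FOXM1, a transcription factor for late cell cycle genes, went from 8.53 untreated to 8.30 at 48 h and 7.52 at 72 h, in an x_at probe set. The phosphatases that remove the inhibitory phosphates of CDK1 differed less. CDC25B read 8.35, 8.32, 8.44, 8.42, 8.43 and 7.88, the narrowest spread before 72 h of all members (0.12), and was 1.46-fold lower at 72 h than at 48 h. CDC25C was 1.49-fold lower over that step, from 5.75 to 5.17.

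The spindle checkpoint genes split into large and small differences. MAD2L1, the checkpoint protein that binds and restrains CDC20, read 10.10, 9.80, 9.84, 9.61, 9.60 and 8.35, with 72 h far below the other arrays. It fell by 0.27 ± 0.07 per step (SE, limma adjusted p = 0.0378), was 3.36-fold lower at 72 h than untreated, and its 3 kept probe sets differed from untreated by -1.57 to -1.87. BUB1B, which encodes BUBR1 of the same inhibitory complex, read 9.45, 9.11, 9.38, 9.37, 8.99 and 7.64. Its value was 3.51-fold lower at 72 h than untreated, the largest such fold among the 40 genes, although its trend was not called (limma adjusted p = 0.0893). The kinase BUB1 read 8.63, 8.10, 8.20, 8.23, 8.30 and 7.68, highest in untreated cells and 1.53-fold lower at 72 h than at 48 h. TTK, the kinase MPS1 at the top of the checkpoint, was 1.92-fold lower over that step. BUB3, a WD-repeat protein that carries BUB1 and BUBR1 to kinetochores, read 10.96, 11.32, 10.89, 10.97, 10.98 and 10.75. Its 1.17-fold difference from 48 to 72 h was the smallest of all members, its 6 kept probe sets were lower by 0.21 to 0.42 over that step, and 2 of the 6 ended above untreated by 0.04.

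Among genes of anaphase and exit, CDC20, the activator of the anaphase-promoting complex, read 9.99, 10.23, 9.98, 10.03, 9.83 and 8.54. The first 5 arrays lay within 0.40 of each other, and 72 h was 2.43-fold below 48 h. Securin (PTTG1), the inhibitor of separase, read 10.61, 10.66, 10.32, 10.38, 10.31 and 9.49, with the 0 and 4 h arrays above all later ones. PTTG1 fell by 0.19 ± 0.05 per step (SE, limma adjusted p = 0.0459), but its only probe set is of the x_at class, which can also read close relatives such as PTTG2. Its target separase (ESPL1) was 1.58-fold lower at 72 h than at 48 h, and UBE2C, the ubiquitin-conjugating enzyme of the complex, 1.83-fold.

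In the chromosomal passenger complex, which corrects faulty attachments and governs cytokinesis, survivin (BIRC5) read 9.01, 9.26, 8.84, 8.78, 8.66 and 7.59. It fell by 0.26 ± 0.07 per step (SE, limma adjusted p = 0.0437), with each array from 12 h on below the 2 before it. The kinase subunit AURKB read 7.75, 7.94, 7.66, 7.91, 7.55 and 6.93 and was 1.54-fold lower at 72 h than at 48 h. The scaffold INCENP, at low signal, went from 4.94 to 4.44 over that step.

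The kinesins, motor proteins of the spindle, had the lowest median from 48 to 72 h of the 9 role groups, -1.19, and 5 of 6 were 2-fold or more lower. KIF14, a motor of cytokinesis, read 8.11, 8.74, 8.37, 8.14, 8.48 and 7.10. Its 2.61-fold difference between 48 and 72 h was the largest of all 40 members. KIF23, a centralspindlin motor of the midzone, read 7.33, 8.03, 7.08, 7.71, 7.71 and 6.47, with high values at 4, 24 and 48 h. KIF11, which slides antiparallel microtubules to keep the poles apart, read 8.39, 8.63, 8.58, 8.47, 8.63 and 7.62 and was 2.01-fold lower at 72 h than at 48 h. KIF20A and KIF4A, which work in the central spindle, were 2.34- and 2.23-fold lower over that step, and the microtubule depolymerase KIF2C was 1.49-fold lower. In the deposited scaling no kinesin had a called trend, and 5 of the 6 stood above untreated at 48 h. With the shift without bioC only KIF23 (0.03) and KIF14 (0.01) stood above it, and KIF2C was called falling.

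At the centromere and outer kinetochore, the kinesin CENPE, which moves chromosomes to the spindle equator, read 7.81, 8.70, 7.89, 8.44, 8.34 and 7.08. NUF2, a subunit of the NDC80 complex that grips microtubules, read 7.90, 8.15, 7.74, 7.70, 8.19 and 6.93. Both were low at 72 h, 2.39-fold below 48 h in each. CENPA, the histone H3 variant that marks centromeres, read 7.32, 7.58, 7.40, 7.17, 7.06 and 6.36 and was 1.63-fold lower from 48 to 72 h, in the only probe set assigned to it alone, also of the x_at class. CENPF, a large protein of the outer kinetochore, was 2.02-fold lower. NDC80 itself differed less, 1.61-fold, and ended 0.26 below untreated.

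Among spindle and midzone proteins, DLGAP5, which stabilises kinetochore fibres, read 8.54, 8.23, 8.49, 8.70, 8.65 and 7.34. Its 72 h value was 2.48-fold below 48 h, and the other arrays overlapped within 0.46. NUSAP1, a microtubule bundler, read 9.48, 9.63, 9.56, 9.63, 9.73 and 9.02, a 1.63-fold difference over the last step. HMMR and ASPM, spindle pole proteins, were 2.11- and 2.10-fold lower, TPX2, the activator of Aurora A on the spindle, 1.91-fold, and the midzone bundler PRC1 1.73-fold.

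**Figure D3:**
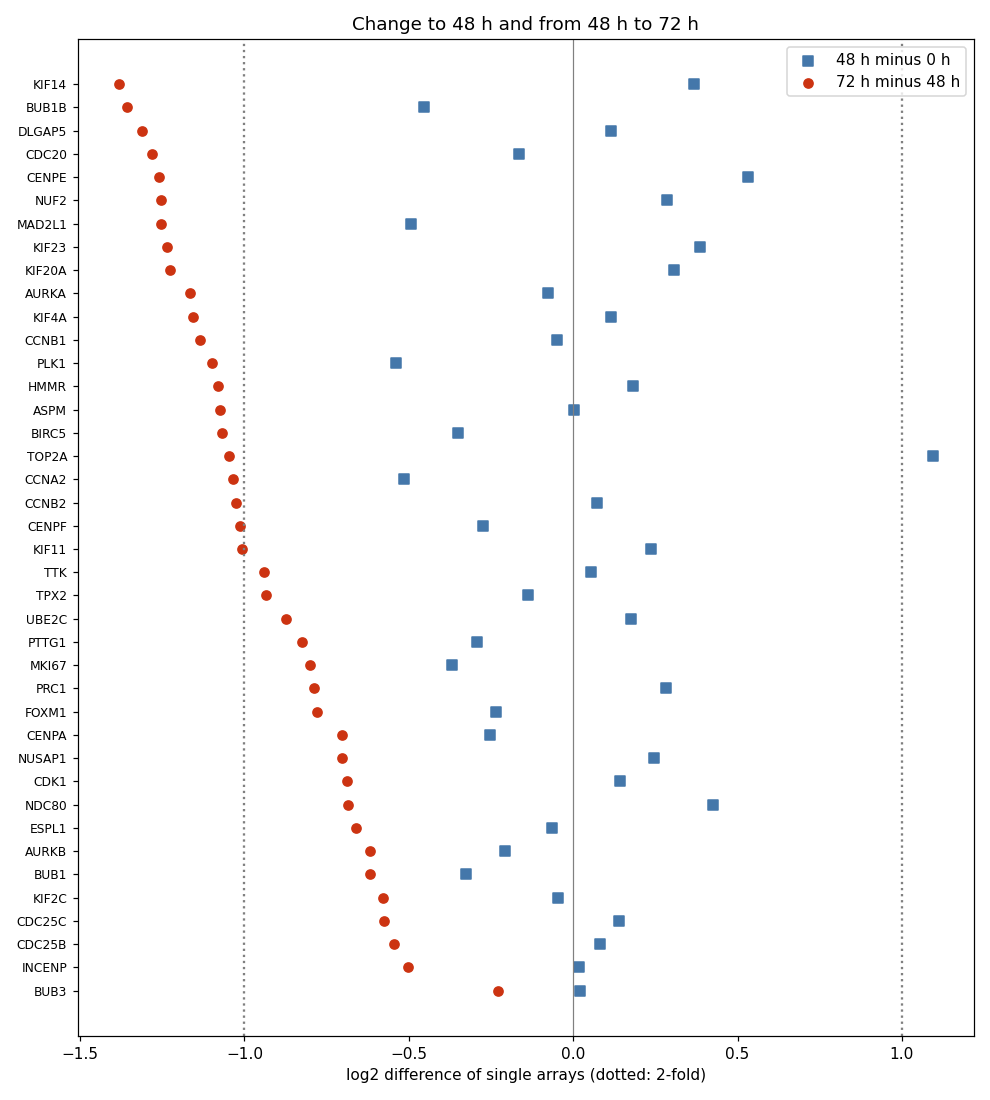
For each of the 40 mitosis genes (y axis, ordered by the later difference), the log2 difference of 48 h from 0 h (blue squares) and of 72 h from 48 h (red circles), each between 2 arrays; dotted lines mark 2-fold. All red circles lie below 0, from -1.38 for KIF14 to -0.23 for BUB3, while the blue squares lie on both sides of 0.

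Topoisomerase II alpha (TOP2A), which untangles sister chromatids, gave different readings by probe set. Its probe set with the highest mean read 9.36, 10.15, 9.30, 10.28, 10.46 and 9.41, high at 4, 24 and 48 h. Its other kept probe set read 9.66, 9.71, 9.74, 9.61, 9.77 and 8.67, even up to 48 h and low at 72 h. From 48 to 72 h both were lower, by 1.05 and 1.10, whereas from 0 to 72 h they differed by 0.05 and -0.99. MKI67, the Ki-67 protein that coats mitotic chromosomes and is a marker of cycling cells, read 9.82, 9.63, 9.65, 9.59, 9.45 and 8.65. This probe set was highest in untreated cells, 2.25-fold lower at 72 h, and not called (limma adjusted p = 0.0573). The other kept probe sets of MKI67 were highest at 12 h (9.37, untreated 9.23) or at 24 h (8.52 and 7.86, untreated 8.01 and 7.79). At 72 h they differed from untreated by -0.59 to -0.91.

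TOP2A, CENPE, NDC80 and KIF23 alternated with the bioC control. They were 1.5-fold or more higher on the mean of the 4, 24 and 48 h arrays than on that of the 0 and 12 h arrays, by 0.97, 0.65, 0.64 and 0.62 (log2). These 4 are 10% of the members, where 4.91% of all genes differed so, and no member differed so in the other direction. The second kept probe set of TOP2A did not vary this way (0.00), and that of KIF23 did (0.57). The values at 4 h share this array set: 6 members (15%) were 1.5-fold or more higher at 4 h than untreated, against 6.56% of all genes, and the 4 h array was the highest for 19 members (47.5%), against 23.8%. With the shift without bioC the members' median at 4 h was -0.25 and not 0.16, so no direction is drawn at 4 h.

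**Figure D4:**
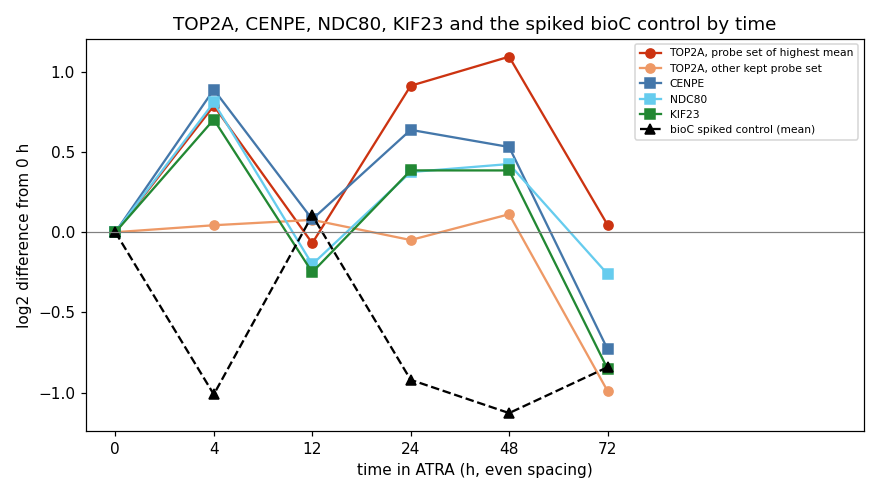
Log2 difference from the untreated array (y axis) by time in ATRA (x axis, evenly spaced) for both kept probe sets of TOP2A, for CENPE, NDC80 and KIF23, and for the mean of the spiked bioC control (dashed). CENPE, NDC80, KIF23 and 1 probe set of TOP2A are high at 4, 24 and 48 h, where bioC is low, the other probe set of TOP2A is not (0.00), and all lines for members drop from 48 to 72 h, where bioC differs little.

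The probe sets of the members gave the same direction over the last step. Of 81 probe sets assigned to a member alone, 75 reached the filter level of 3.66, all 75 were lower at 72 h than at 48 h, and 31 were 2-fold or more lower. Over all genes, with 1 probe set each, 55.8% were lower and 2.14% were 2-fold or more lower. In each of the 20 members with several kept probe sets, all of them were lower. Compared with untreated cells, 70 of the 75 were lower at 72 h, where 54.7% of all genes were. The 5 others belong to AURKA, BUB3 (2 probe sets), CDK1 and TOP2A.

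Other genes of the mitotic machinery, 108 from 7 lists by function, were set beside the members. Of the 102 kept, 96 were lower at 72 h than at 48 h (55.8% of all genes were) with a median of -0.55. Of the 102, 12 were 2-fold or more lower (2.14% of all genes were) and 0 higher (4.74%). In the trend 14 of the 102 fell and 0 rose, where 9.86% of all genes fell and 8.33% rose, so the falling share is near the background. The medians were negative in all 7 lists in the deposited scaling and with cyclic loess, and both control shifts could only lower them. Condensins, which compact chromosomes, had a median of -0.82 over 8 genes, of which NCAPD3 fell (-1.47 at 72 h from untreated), and NCAPD2 and NCAPG2 differed by -1.77 and -1.18. Other spindle, motor and cytokinesis genes had a median of -0.82 over 20 genes, 7 of them 2-fold or more lower. KIF2A (-1.34 at 72 h from untreated) and KIF20B fell, while CKAP5 and KIF15 differed by -1.48 and -1.34.

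The remaining lists differed less. Other centromere and kinetochore genes had a median of -0.60 over 30, and MAD1L1 (-2.51 from untreated), the partner of MAD2L1, SKA3 (-1.78), MIS18A (-1.50), HJURP and CENPH fell. Cohesin and its regulators had a median of -0.45 over 11 genes, with CDCA5 falling (-1.18), and SGO2 and SMC3 at -1.27 and -1.09 from untreated. The anaphase-promoting complex had a median of -0.24 over 16 genes. ANAPC5 fell (-1.12), and 2 of the 16, CDC26 and FZR1, were slightly above 48 h at 72 h. Among brakes on CDK1 and its partners (median -0.66 over 7), CHEK1 and CKS2 fell (-1.31 and -1.24), and the CDK inhibitor CDKN1A differed by 0.73 from untreated without a call. Among MuvB, DREAM and B-MYB regulators (median -0.44 over 10), MYBL2, which encodes B-MYB, and TFDP1 fell (-1.41 and -1.12).

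DNA replication genes, the preceding phase of the cycle, had a 48 to 72 h median of -0.68 over 31 genes. All 31 genes were lower (55.8% of all genes were), and 3 of the 31 were 2-fold or more lower, against 2.14% of all genes. Their median difference from untreated at 48 h was -0.30 in the deposited scaling, where that of the mitosis members was 0.02. In the trend 11 of 31 fell, against 9.86% of all genes, including MCM4 (-1.99 at 72 h), GINS2 (-1.87) and MCM3 (-1.65). Whether the courses of these lists differ was not tested.

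**Figure D5:**
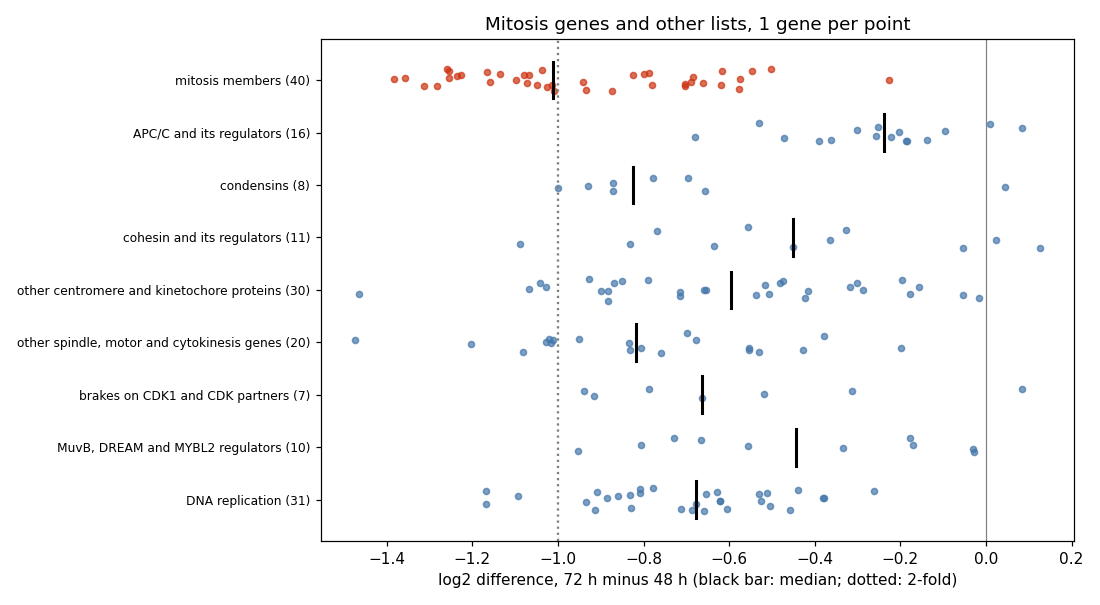
Log2 difference between the 72 h and 48 h arrays (x axis) for the mitosis members and 8 other lists (y axis, number of genes kept in brackets); each point is 1 gene, the black bar is the list's median and the dotted line marks 2-fold. Medians run from -1.01 for the members to -0.24 for the anaphase-promoting complex (APC/C).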

How the data were processed

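Total RNA of NB4 cells was labelled by one-cycle synthesis and hybridised to 6 Affymetrix arrays, 1 per time. The authors deposited 1 log2 value per probe set and array; per the submitters' processing notes they come from RMA, for which no version or build is given in the sources used here. RMA makes arrays alike, so a shift of most transcripts would be hidden. The number of arrays, 1 per time, limits the precision. Of 54675 probe sets, 41097 had 1 gene, 1801 several and 11777 none; symbols were updated through Entrez identifiers to GRCh38.p14. Genes whose brightest array stayed under 3.66, the median over the table, were left out. A slope over the order of times (0 to 5) was fitted to all kept genes in R 4.3.3 using limma 3.58.1, with lmFit and with eBayes(trend=TRUE), and a gene was called where its p, adjusted after Benjamini-Hochberg, was under 0.05. On simulated data with 13594 genes this trend fit recovered 66 of 100 slopes of 0.3 and 89 of 100 of 0.6, with 11 false calls. The simulated slopes were straight lines. The steepest slope of a member was -0.28 per step (CCNA2) and the members' median -0.14, so these rates do not carry over to the members. Promoters were searched in Python 3.11.15. Members and lists were chosen with earlier results of these data known. By rule, values in every sample were given for members called in the trend, the 8 largest falls from 48 to 72 h (no member was higher), the leading member of each role and members whose probe sets disagree at 72 h, and up to 3 genes were named per other list; CCNB1, MKI67, KIF20B, HJURP, CENPH, CDC26 and FZR1 were added after their values were seen, the last to spell out counts. Alternatives are in the closing section. One marker gene is not reported here.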

Additional observations from a re-analysis of the deposited data

How the results depend on the processing

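The members' median difference from 48 to 72 h stayed negative under every alternative run, from -1.35 to -0.81, while the 5 trend calls ranged from 0 to 19. Both control shifts could only make that median more negative. With cyclic loess the members' medians were 0.13 at 12 h, 0.13 at 48 h, -0.64 at 72 h and -0.81 from 48 to 72 h. With it 6 members were 2-fold lower at 72 h than untreated (8.56% of all genes) and 9 lower than at 48 h (1.26%). It left 1 member 2-fold higher at 24 h and 1 falling in the trend (7.82% of all genes). With an equal median of the 18 hybridisation controls the medians were 0.87, -0.21, 0.88, 1.02 and -0.28 at 4, 12, 24, 48 and 72 h and -1.35 from 48 to 72 h. Members 2-fold higher numbered 9, 6 and 22 at 4, 24 and 48 h. The median of all genes at 48 h was 0.98 there, so the 22 say nothing particular about the members. Nor do the 9 and 6, since this setting added 0.71 to every gene at 4 h and 0.83 at 24 h. No share of all genes 2-fold higher is given for it at these times. With the same setting 2 were 2-fold lower at 72 h than untreated (3.65% of all genes). There were 32 lower at 72 h than at 48 h (8.14%) and 0 falling in the trend (0.353%). With bioB, bioD and cre without bioC the medians were -0.25, -0.43, -0.34 and -1.51 at 4, 24, 48 and 72 h and -1.22 from 48 to 72 h. With that shift 37 members were 2-fold lower at 72 h than untreated (28.3% of all genes), 0 higher at 48 h and 19 falling (24%). These shifts add a constant to each array by construction; the cause of the other changes was not tested.

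The mean of all probe sets gave -0.90 from 48 to 72 h and 0 members higher at 48 h, as did the baseline of the 0 and 4 h mean for that count (0). At 1.5-fold, 6 and 2 members were higher at 4 and 24 h (6.56% of all genes at 4 h). At 24 h the highest 5% of all genes stood above 0.78 (log2), so the 2 (5%) say nothing particular about the members. At that fold 31 (77.5%) were lower at 72 h than untreated, against 3126 of 13594 genes, and 35 (87.5%) lower than at 48 h, against 10.5%. Members falling in the trend numbered 3 with the bioC covariate (9.57% of all genes) and 14 on hours (13.1%). They numbered 0 to 5 with each array left out (1.98% to 9.33% of all genes). The count was 3 without a filter and 0 within the 4, 24, 48 and 72 h arrays. Members falling numbered 4, 4, 4 and 7 with the mean of all probe sets, without x_at probe sets, without the intensity trend and with the filter at percentile 75. Where no share of all genes is given, the count of members falling says nothing particular about them. Adding 50 bases after the start to the promoter window, chosen after seeing the data, gave 24 members with a CHR in place of 18. Without x_at probe sets FOXM1, PTTG1 and CENPA have no value. No paired analysis was possible because each group has 1 array.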

Other observations

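Some dim second probe sets of members moved apart from the bright ones early on; they were picked after their values were seen and have no replicate check. One probe set of BIRC5 read 4.83 untreated and 6.21 at 4 h, a difference of 1.38, while the other 3 kept probe sets of that gene differed by 0.11 to 0.25. A probe set of CDK1 read 3.40, 4.42, 4.78, 4.33, 4.47 and 3.47 from 0 to 72 h, under the filter level of 3.66 on the 0 and 72 h arrays and above it between. The lowest probe set of AURKA differed by 0.77 at 4 h, where the other 2 differed by 0.13 and 0.38.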
